A study of Mus musculus with 6 samples.

Results

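The Myc and Max network is a family of transcription factors that share a helix-loop-helix and leucine zipper and bind DNA in pairs. The 10 members described here, *Myc*, *Mycn*, *Mycl*, *Max*, *Mxd1*, *Mxd3*, *Mxd4*, *Mxi1*, *Mnt* and *Mlx*, were listed by gene symbol and taken out of 35602 genes in the count table of the series. All 10 were found in that table and in both tables that hold a single library.

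Max is the shared partner of the network. Myc, Mycn and Mycl pair with Max and activate genes of growth, whereas the Mxd proteins, Mxi1 and Mnt compete for Max and recruit Sin3 repressors to the same E-box sequence, CACGTG. Mlx is a Max-like partner that also serves the glucose-responsive Mondo factors. In T cells, Myc rises soon after antigen receptor stimulation and is known for driving cell growth, amino acid uptake and glycolysis, while several Mxd genes are known for rising as cells stop dividing.

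CD4+ T cells sorted from mouse spleen were stimulated with anti-CD3/CD28 antibodies and given MAPK13-inhibitors (labelled MAPK13-IN-1), which block the kinase encoded by *Mapk13*, or the solvent DMSO, and the comparison asks which transcripts differ between these treatments. Each group holds 3 libraries, of which replicates 2 and 3 share 1 table of whole-number read counts and replicate 1 has a table of its own with values read here as FPKM (fragments per kilobase of transcript, scaled to library depth). DMSO replicates 2 and 3 held 26874805 and 28487403 reads counted on genes, and the inhibitor replicates held 33854760 and 32617702. No source used here states that the libraries of a group came from separate mice or cultures, so p-values measure only the spread between libraries.

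The cells of replicates 2 and 3 carried a wild-type (WT) genotype and grew in RPMI medium with fetal bovine serum, and the strain and age of the mice are not given in the labels. Per the labels, 17.1 µM of MAPK13 inhibitor, or 0.1 µl of DMSO, was added after day 1, while the design text of the series gives 72 h of stimulation with the compound present. The replicate 1 libraries were given that number here, as their titles hold none, and replicate numbers serve only to set libraries side by side. For them the labels name only the tissue, the cells and the treatment, and they were prepared with a stranded mRNA kit, whereas the others were prepared with poly-T beads. The kit and the set of libraries cannot be told apart.

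Markers of the labelled cell type were present in every library, and markers of B cells were present too. The 10 CD4+ T cell markers summed to 1975 and 2000.1 CPM (counts scaled to a common library total, here with no further factor) in the DMSO libraries and to 1176 and 1311 in the MAPK13-inhibitors libraries, with *Cd5* the most counted with DMSO, *Cd4* with the inhibitors and none at 0. Of these 10 markers, 8 were lower with the inhibitors and 1 was higher, a call lost without DMSO replicate 2 or 3, while *Cd4* itself was not called. By the rule given below, 32.3% of all genes tested were called lower and 31.5% higher. The 10 B cell markers used here, with *Pax5* the most counted with the inhibitors and none at 0, summed to 916 and 890 with DMSO and to 1215 and 1207 with the inhibitors, and 8 of them were higher and 2 lower, with 6 higher without DMSO replicate 2 or 3. In the replicate 1 libraries, CD4+ T cell markers summed to 1409.8 FPKM with DMSO and 1410.1 FPKM with the inhibitors, against 42.7 and 28.8 FPKM for B cell markers. Their part in the results below was not tested, and in bulk RNA fewer cells of a type and less RNA per cell cannot be told apart.

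Markers of rarer cells were read too, and their counts of calls stand beside the same shares over all genes. Erythroid markers, led by *Epor* with DMSO and *Hbb-bs* with the inhibitors, summed to 10.1 and 9.76 on the same scale with DMSO and to 95.4 and 68.8 with the inhibitors, and 5 of the 7 tested were higher and 1, *Epor*, lower, a call lost with DESeq2, under library-total or upper-quartile scaling and without DMSO replicate 2, DMSO replicate 3 or MAPK13-inhibitors replicate 2. Macrophage markers, led by *Cd68*, summed to 12.7 and 11.0 against 43.3 and 35.5, with 5 of 6 tested higher. Dendritic cell markers, led by *Batf3* with DMSO and *Zbtb46* with the inhibitors, summed to 43.1 and 43.5 against 64.1 and 54.8, with 4 of 5 higher and 1, *Batf3* (log2 fold change -3.19), lower. Both CD8 T cell markers, led by *Cd8b1*, were lower, at sums of 11.2 and 10.4 against 5.76 and 8.16, although the call of *Cd8b1* was lost with DESeq2 (adjusted p 0.051). Plasma cell markers, led by *Irf4*, which activated T cells also express, summed to 1104 and 1093 against 848 and 903, with 3 of 6 higher and 2 lower. NK cell markers, led by *Eomes* and with *Klra8* at 0, stayed between 1.38 and 2.25, with 0 of 1 tested called. Neutrophil markers, with *S100a9* at 0 and *Mpo* most counted with the inhibitors, rose from 0.223 and 0.211 to 0.591 and 0.797, with 1 of 1 tested, *Mpo*, higher, a call lost with DESeq2. *Mpo* passed the count filter only through the inhibitors libraries, as did the macrophage marker *C1qb* and the dendritic marker *Xcr1*. *C1qb* had 2 and 0 counts against 14 and 12, and *Xcr1* had 0 and 4 against 27 and 16. Such calls could hardly have gone the other way and lend no support. In replicate 1 the sums with DMSO and with the inhibitors were 1.00 and 2.03 FPKM for erythroid, 3.00 and 9.31 for macrophage, 29.9 and 50.5 for dendritic, 3.49 and 8.39 for CD8 T, 352 and 235 for plasma, 0.5997 and 4.35 for NK and 0.533 and 0.351 for neutrophil markers, so CD8 T and neutrophil markers went the other way there. The part of these lists in the results was likewise not tested.

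In the count table, 9 of the 10 members had enough counts to be tested, and all 9 differed when MAPK13-inhibitors-treated CD4+ T cells were compared with DMSO-treated cells. Transcripts of *Myc*, *Mycl*, *Mxd3*, *Mnt* and *Mlx* were lower with the inhibitors, and transcripts of *Max*, *Mxd1*, *Mxd4* and *Mxi1* were higher. A gene was called at an adjusted p under 0.05 in the quasi-likelihood test of edgeR, with the p-values of all 16269 genes tested adjusted by Benjamini-Hochberg. By that rule 63.8% of all genes tested were called, 32.3% lower and 31.5% higher, so a large share of members called is also the share seen across the table. The 5 members lower and 4 higher had a median log2 fold change of -0.56, beside 0.01 over all genes tested, and in the alternatives that also tested *Mycn* the median of the members was only -0.14 to -0.10. Member sizes were near those of other genes, with a median absolute log2 fold change of 0.68 beside 0.52 over the table. *Mycn*, with 0 to 14 counts in a library, was the member not tested.

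**Figure D1:**
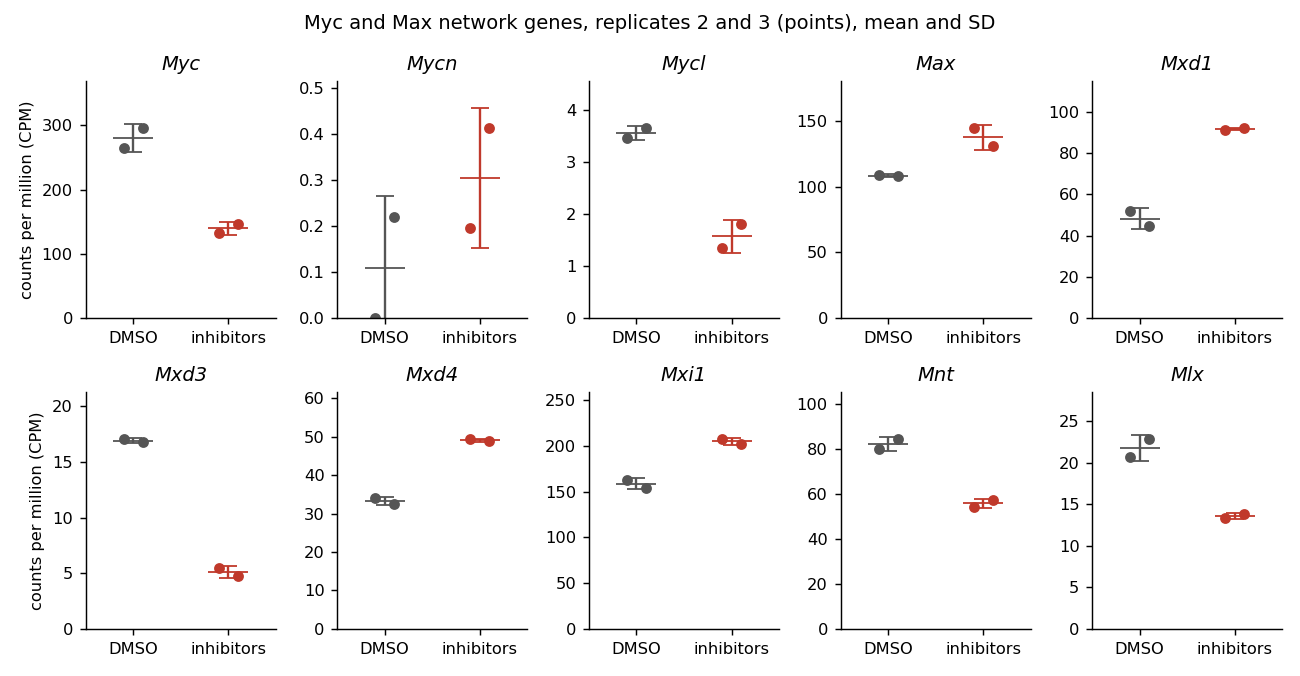
Levels of the 10 members in CPM (scaled counts, vertical axis, linear and starting at 0, with its own range in each panel) in the DMSO and MAPK13-inhibitors libraries of replicates 2 and 3. Points are libraries, and lines give the mean and SD of 2 libraries; *Myc* falls from 265 and 295 CPM to 132 and 147 CPM, and *Mxd1* rises from 51.7 and 44.7 CPM to 91.3 and 91.9 CPM.

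*Myc*, the member that drives growth in stimulated T cells, lies on chromosome 15 (chr15:61985391-61990374, plus strand, GRCm38, ENSMUSG00000022346.15). It was counted 6830 and 8034 times in the DMSO libraries and 4700 and 4991 times in the MAPK13-inhibitors libraries. Scaled to CPM with TMM factors, which correct the library totals for composition, these are 265 and 295 CPM against 132 and 147 CPM. Both libraries with the inhibitors lay below both DMSO libraries, and the gap was far wider than the spread within a group. The means were 280.0 ± 21.6 CPM with DMSO and 139.8 ± 10.5 CPM with the inhibitors (SD, n = 2 each). The log2 fold change was -1.00 with an SE of 0.07 and a 95% confidence interval of -1.16 to -0.84, and the edgeR quasi-likelihood adjusted p was 1.19e-06. Among the genes tested, 10.7% had a lower log2 fold change than *Myc*, and 24.9% had a larger change in either direction.

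In the replicate 1 libraries *Myc* stood the other way round. It had 55.0 FPKM with DMSO and 73.7 FPKM with the inhibitors, a log2 ratio of 0.42 on the log2(FPKM + 1) scale. With 1 library per group this ratio has no replicate check and no test. The depth of these libraries is unknown, because the values hold no counts.

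*Mycl*, the paralog best known from dendritic and lung cells, was scarce. It had 89 and 99 counts with DMSO and 48 and 61 counts with the inhibitors, or 3.45 and 3.64 CPM against 1.35 and 1.80 CPM. The groups did not overlap, and the log2 fold change was -1.17 (SE 0.23), with an edgeR quasi-likelihood adjusted p of 0.00135. In replicate 1 it had 0.282 FPKM with DMSO and 0.102 FPKM with the inhibitors, the same direction at a very low level. Its interval in the count table, -1.69 to -0.65 on the log2 scale, was wide for a member.

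*Mycn*, the paralog of neural and early progenitor cells, was near the limit of detection. Its counts were 0 and 6 with DMSO and 7 and 14 with the inhibitors, at most 0.413 CPM. The count of 0 allows up to 3 counts, or 0.112 CPM of the library total, from counting error alone. Replicate 1 lists *Mycn* at 0 with DMSO and at 0.280 FPKM with the inhibitors. Leaving out DMSO replicate 3 left a DMSO group of 0 counts. *Mycn* then entered the test only through the inhibitors libraries and could come out only as higher. Over the other alternatives in which *Mycn* was tested, its adjusted p in edgeR or DESeq2 ran from 0.13 to 0.716.

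*Max*, the shared partner of the Myc, Mxd and Mnt proteins, lies at chr12:76937269-76962201 on the minus strand. It was counted 2815 and 2934 times with DMSO and 5123 and 4439 times with the inhibitors. On the scaled level these are 109 and 108 CPM against 144 and 131 CPM. Both inhibitors libraries lay above both DMSO libraries, which were nearly equal to each other. *Max* had the smallest change of the 9 members tested in this fit, though not under every alternative, with a log2 fold change of 0.34 (SE 0.07, 95% interval 0.20 to 0.49), with an edgeR quasi-likelihood adjusted p of 0.000972. In replicate 1 it had 36.4 FPKM with DMSO and 35.2 FPKM with the inhibitors, which is a log2 ratio of -0.05.

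Since *Myc* was lower and *Max* higher, the balance between them shifted within each library of the count table. There were 2.43 and 2.74 *Myc* counts for each *Max* count in the DMSO libraries and 0.917 and 1.12 in the inhibitors libraries. In replicate 1 the ratio of FPKM values was 1.51 with DMSO and 2.09 with the inhibitors, again the other way round. Such a ratio within a library does not depend on how that library was scaled.

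The antagonists that pair with Max moved in both directions. *Mxd1* encodes a repressor that is known to rise when cells leave the cycle and differentiate, and it lies at chr6:86647042-86669161 on the minus strand. It had 1333 and 1215 counts with DMSO and 3243 and 3115 counts with the inhibitors, or 51.7 and 44.7 CPM against 91.3 and 91.9 CPM. The inhibitors libraries were almost level with each other and stood clear above the DMSO libraries. The means were 48.2 ± 4.96 CPM and 91.6 ± 0.398 CPM (SD, n = 2 each), and the fold was 1.90. The log2 fold change of 0.93 (SE 0.08, 95% interval 0.75 to 1.10) was the largest rise among the members, with an edgeR quasi-likelihood adjusted p of 3.7e-06. Of the genes tested, 15.5% had a higher log2 fold change. Replicate 1 went the same way, from 6.41 FPKM with DMSO to 24.2 FPKM with the inhibitors, a log2 ratio of 1.76.

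*Mxd4*, a further repressor of the same subfamily, rose less in the count table. It had 877 and 884 counts with DMSO and 1752 and 1653 with the inhibitors, or 34.0 and 32.5 CPM against 49.3 and 48.7 CPM. The groups were far apart compared with their spread, and the log2 fold change was 0.56 (SE 0.08), with an edgeR quasi-likelihood adjusted p of 0.000104. Replicate 1 gave 15.3 FPKM with DMSO and 37.0 FPKM with the inhibitors, a log2 ratio of 1.22 and thus the same direction.

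*Mxi1*, also called Mxd2, was the most abundant antagonist per length in each count library. Its counts were 4193 and 4192 with DMSO and 7361 and 6857 with the inhibitors, or 163 and 154 CPM against 207 and 202 CPM. The groups did not overlap, although the change was small, with a log2 fold change of 0.37 (SE 0.06) and an edgeR quasi-likelihood adjusted p of 0.000234. In replicate 1, *Mxi1* went from 15.2 FPKM with DMSO to 26.8 FPKM with the inhibitors, a log2 ratio of 0.78. *Mxd1*, *Mxd4* and *Mxi1* were therefore higher with the inhibitors in each of the 3 libraries when set beside the DMSO library of the same number.

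*Mxd3* is the exception of its subfamily, known for being expressed in dividing cells during S phase. It had 440 and 456 counts with DMSO and 194 and 160 counts with the inhibitors, or 17.1 and 16.8 CPM against 5.46 and 4.72 CPM. This was the strongest change of any member, in the direction opposite to the other Mxd genes. The means were 16.9 ± 0.209 CPM and 5.09 ± 0.526 CPM (SD, n = 2 each), a level 3.32-fold higher with DMSO. The log2 fold change was -1.73 with an SE of 0.13 and a 95% interval of -2.02 to -1.44, at an edgeR quasi-likelihood adjusted p of 1.6e-06. Only 3.56% of the genes tested had a lower log2 fold change. Replicate 1 showed the same direction, with 17.7 FPKM with DMSO and 7.89 FPKM with the inhibitors and a log2 ratio of -1.07.

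*Mxd3* shares 105 exon bases, 4.43% of its exons, with *Prelid1* on the other strand. Strand use in the counting of replicates 2 and 3 is not given in the sources used here, so reads in that stretch cannot be assigned to either gene. *Mxd4* (514 bases, 6.06%) and *Mxi1* (194 bases, 2.84%) also share exon bases with genes on the other strand, whose counts are not used here, so the same holds for them. *Prelid1* had 16415 and 17687 counts with DMSO and 15947 and 16492 with the inhibitors.

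*Mnt* encodes the antagonist that is known for being present in both resting and dividing cells. Its counts were 2059 and 2293 with DMSO and 1930 and 1938 with the inhibitors, which is 79.8 and 84.3 CPM against 54.3 and 57.2 CPM once scaled. The groups did not overlap on the CPM scale, and the log2 fold change was -0.56 (SE 0.07), with an edgeR quasi-likelihood adjusted p of 4.93e-05. Replicate 1 held 11.8 FPKM with DMSO and 12.0 FPKM with the inhibitors, nearly the same level, at a log2 ratio of 0.02.

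*Mlx*, the partner of the Mondo factors and of some Mxd proteins, lies at chr11:101087277-101092207 on the plus strand. It had 532 and 621 counts with DMSO and 472 and 470 with the inhibitors, or 20.6 and 22.8 CPM against 13.3 and 13.9 CPM. The groups did not overlap, and the log2 fold change was -0.68 (SE 0.11), with an edgeR quasi-likelihood adjusted p of 0.000254. Replicate 1 gave 16.2 FPKM with DMSO and 14.6 FPKM with the inhibitors, a small difference in the same direction, at a log2 ratio of -0.14. *Mlx* shares 385 exon bases, 19.3% of its exons, with *Psmc3ip* on the other strand, whose counts were 278 and 262 with DMSO and 112 and 125 with the inhibitors. Without a stated use of strand, the part of *Mlx* counts that falls there cannot be told apart from *Psmc3ip*.

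**Figure D2:**
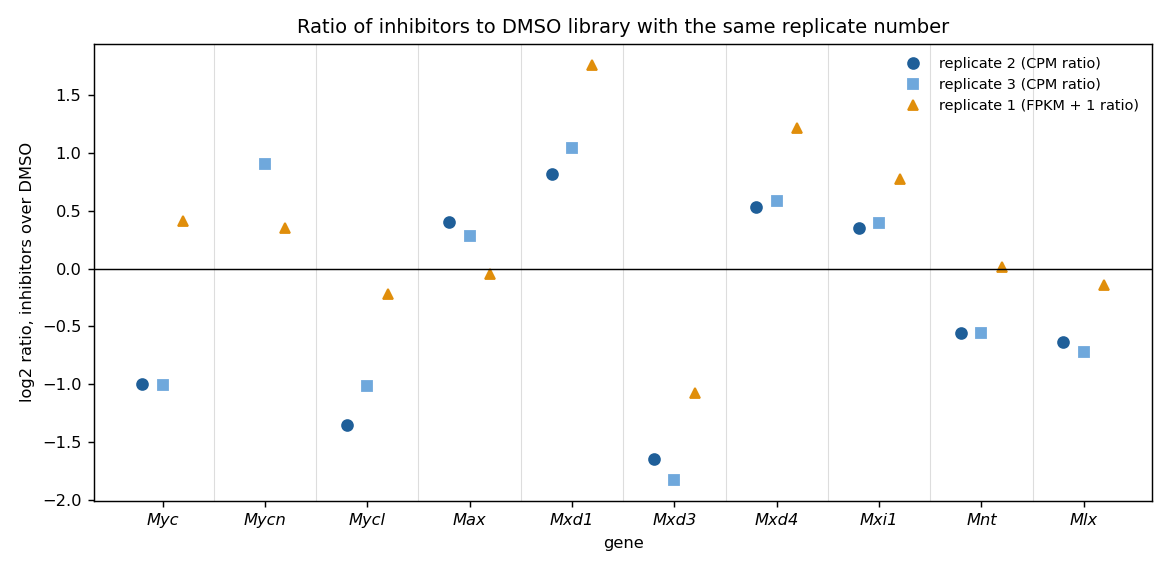
Log2 ratio of the MAPK13-inhibitors library to the DMSO library with the same replicate number (vertical axis) for each member, from CPM in replicates 2 and 3 and from FPKM + 1 in replicate 1. Above the line at 0 a gene is higher with the inhibitors; *Mxd1*, *Mxd4* and *Mxi1* lie above it and *Mxd3*, *Mycl* and *Mlx* below it in all libraries shown, whereas *Myc* lies at -1.00 in replicates 2 and 3 and at 0.42 in replicate 1.

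Across the members called in the count table, 6 of 9 had the same direction in replicate 1 and 3 had the opposite direction. Over all called genes with a replicate 1 value, 6714 of 10192 (65.9%) had the same direction, a share close to that of the members. The opposite ones were *Myc*, *Max* and *Mnt*, of which *Max* and *Mnt* were nearly level in replicate 1 and *Myc* was not. The median log2 ratio in replicate 1 was 0.19 for the 10 members and 0.019 for the 9 tested in the count table. That of all genes tested in the count table was 0.07 there. The replicate 1 tables were normalized apart from the count table, and the difference between them was not tested.

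Levels can be compared between members only per length, here as CPM divided by the summed length of a gene's exons in kilobases. In the DMSO libraries *Myc* led with 97.4 and 109 CPM per kilobase, followed by *Max* with 30.3 and 30.0. *Mxi1* came next with 23.8 and 22.6, then *Mnt* with 17.2 and 18.2 and *Mlx* with 10.3 and 11.4. *Mxd3*, at 7.20 and 7.07, and *Mxd1*, at 7.31 and 6.31, overlapped and cannot be ordered. *Mxd4* with 4.01 and 3.83 and *Mycl* with 0.854 and 0.901 closed the order above *Mycn*. The other neighbours in this order did not overlap between their 2 libraries.

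With the inhibitors the order of levels per length changed in its lower part. *Myc* still led with 48.7 and 54.2 CPM per kilobase, but *Max* was much closer, with 40.1 and 36.4, and *Mxi1* followed with 30.4 and 29.6. *Mxd1* had moved above *Mnt*, with 12.9 and 13.0 against 11.7 and 12.4, although these neighbours were separated by little. *Mxd4*, with 5.81 and 5.75, lay above *Mxd3*, with 2.31 and 1.99, which was the reverse of their order with DMSO. *Mlx*, with 6.65 and 6.93, lay between *Mnt* and *Mxd4*.

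In replicate 1 the order of FPKM values with DMSO was also led by *Myc* and *Max*, and *Mxd3*, *Mlx*, *Mxd4* and *Mxi1* followed between 15.2 and 17.7 FPKM. With the inhibitors *Mxd4* stood next to *Myc*, above *Max*, and *Mxd3* lay below all the other antagonists. *Mycl* and *Mycn* were lowest in both libraries, at or under 0.282 FPKM.

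The level of *Myc* was also set against the summed level of its antagonists *Mxd1*, *Mxd3*, *Mxd4*, *Mxi1* and *Mnt* within each library. In counts, which carry gene length, there were 0.767 and 0.889 *Myc* counts for each antagonist count with DMSO and 0.325 and 0.364 with the inhibitors. In FPKM the ratio was 0.829 with DMSO and 0.683 with the inhibitors. The ratio was thus lower with the inhibitors in each set of libraries, including replicate 1, in which *Myc* itself was higher. On the log2 scale the count ratio averaged -0.28 ± 0.15 with DMSO and -1.54 ± 0.12 with the inhibitors (SD, n = 2 each), a difference of -1.27, and the difference in replicate 1 was -0.28. No test was run on this ratio, and with 2 libraries against 2 a two-sided exact permutation test cannot give a p under 0.333.

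**Figure D3:**
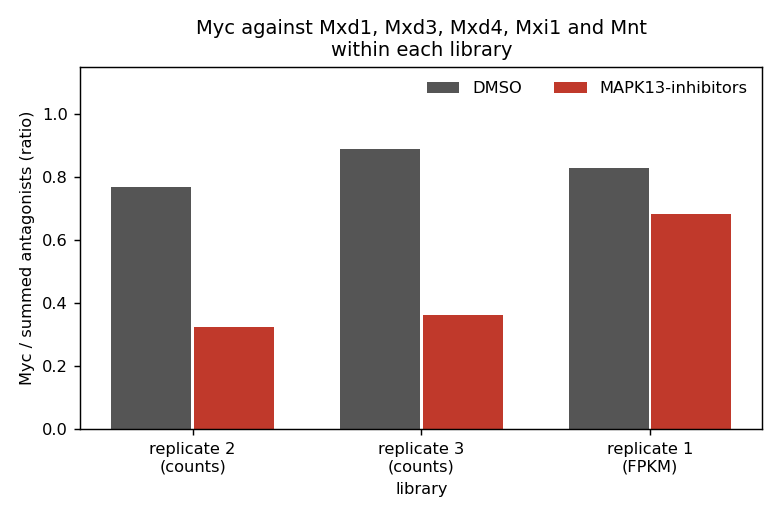
Ratio of *Myc* to the sum of *Mxd1*, *Mxd3*, *Mxd4*, *Mxi1* and *Mnt* within each library (vertical axis, no unit), from counts in replicates 2 and 3 and from FPKM in replicate 1, so heights are not comparable between those scales. Each bar is 1 library; the MAPK13-inhibitors bar is lower than the DMSO bar of the same number, at 0.325 against 0.767, 0.364 against 0.889 and 0.683 against 0.829.

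Taken one antagonist at a time, the balance with *Mxd1* moved most in replicates 2 and 3. There were 5.12 and 6.61 *Myc* counts for each *Mxd1* count with DMSO and 1.45 and 1.60 with the inhibitors. The replicate 1 ratio went from 8.58 to 3.05 in FPKM. *Myc* was lower against *Mxd4* and against *Mxi1* in every numbered comparison too, by log2 differences of -1.54, -1.59 and -0.85 for *Mxd4* and of -1.35, -1.40 and -0.40 for *Mxi1* in replicates 2, 3 and 1. Against *Mxd3*, which fell further than *Myc*, the ratio was higher with the inhibitors, by 0.64, 0.82 and 1.59. Against *Mnt* the sign was not shared, with -0.45 and -0.44 in replicates 2 and 3 and 0.40 in replicate 1.

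Because CD4+ T cell markers were lower in the same libraries as *Myc*, the members were also set against the summed CD4+ T cell markers within each library, a measure chosen after the values were seen. There were 0.129 and 0.141 *Myc* counts for each marker count with DMSO and 0.118 and 0.117 with the inhibitors, which is a log2 difference of -0.12 and -0.27. This is much smaller than the log2 fold change of *Myc* over the whole library. However, 8 of the 10 markers in the sum were themselves lower, while *Cd4* was level (log2 fold change -0.0006) and *Icos* had 0.21. The differences against the sum thus depend on which markers enter it, and they do not show that *Myc* was level per T cell. Against the summed B cell markers, likewise chosen after the values were seen, the log2 difference of *Myc* was -1.28 and -1.32, and 0.99 in replicate 1. Set against the summed CD4+ T cell markers, *Mxd3* remained lower, by log2 differences of -0.77 and -1.10, and *Mycl* had -0.48 and -0.28. *Mxd1* was higher by 1.70 and 1.77, *Mxd4* by 1.41 and 1.32, *Mxi1* by 1.23 and 1.12 and *Max* by 1.28 and 1.01. *Mnt*, with 0.32 and 0.17, and *Mlx*, with 0.24 and 0.01, changed their sign against these CD4+ T cell markers. In replicate 1, where the CD4+ T cell marker sums were level, the log2 differences against them were 0.42 for *Myc*, 1.92 for *Mxd1* and -1.16 for *Mxd3*. No cell type was measured apart from the others, so these values do not say in which cells a transcript changed.

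The genes closest to *Myc* in pattern over the 4 count libraries, by Euclidean distance of centred log2 CPM, were *Pusl1* at a distance of 0.0301, *Tlnrd1* at 0.0329 and *Drap1* at 0.0369. *Drap1*, for example, had 77.6 and 87.3 CPM with DMSO and 38.7 and 42.0 CPM with the inhibitors. It was picked for following *Myc* over these same libraries, so the likeness is no separate result. Only 4 libraries enter this measure.

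The network reaches beyond the listed members through *Mga*, a large Max-binding repressor, and through the Mondo factors *Mlxip* and *Mlxipl*, which pair with Mlx and respond to glucose phosphates. *Mga* had 148 and 151 CPM with DMSO and 238 and 220 CPM with the inhibitors, a log2 fold change of 0.61 (SE 0.06) with an edgeR quasi-likelihood adjusted p of 9.54e-06. *Mlxip* had 169 and 163 CPM against 274 and 273 CPM, a log2 fold change of 0.72 (SE 0.05) with an edgeR quasi-likelihood adjusted p of 1.61e-06. Thus *Mlxip* was higher in the libraries in which its partner *Mlx* was lower. *Mlxipl* had 38 and 48 counts against 17 and 34, a log2 fold change of -1.13 (SE 0.38) with an edgeR adjusted p of 0.0224. That call rests on few counts, and the adjusted p over the alternatives ran from 3.47e-04 to 0.136. It was lost with DESeq2 (0.136) and without DMSO replicate 3 (0.0703) or without MAPK13-inhibitors replicate 2 (0.114), where the log2 fold change was -0.69, while without MAPK13-inhibitors replicate 3 it was -1.76. In replicate 1, *Mlxip* had 10.8 FPKM with DMSO and 14.5 FPKM with the inhibitors, *Mga* 9.35 and 8.32 FPKM and *Mlxipl* 0.0258 and 0.143 FPKM.

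*Mapk13*, which encodes the kinase that the treatment targets, had 79 and 74 counts with DMSO and 21 and 51 with the inhibitors. Its log2 fold change was -1.47 (SE 0.36), with an edgeR quasi-likelihood adjusted p of 0.0049, and it was -0.94 without MAPK13-inhibitors replicate 2 and -2.29 without replicate 3. In replicate 1 it had 0.191 FPKM with DMSO and 3.28 FPKM with the inhibitors. *Pvt1*, the noncoding neighbour of *Myc* on chromosome 15, had 1127 and 1133 counts with DMSO and 1683 and 1433 with the inhibitors and was not called, with a log2 fold change of 0.07 and an edgeR quasi-likelihood adjusted p of 0.47. *Myc* and *Pvt1* thus did not share a call. *Tcf7* and *Lef1*, which encode T cell factors known to act on *Myc* with beta-catenin, went in opposite directions, with log2 fold changes of 0.29 and -0.91 at edgeR quasi-likelihood adjusted p-values of 0.00855 and 7.34e-07. Without MAPK13-inhibitors replicate 3 the value of *Tcf7* was 0.15.

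Of 16 genes known to act upstream of *Myc* in T cells, including *Tcf7*, *Lef1* and *Pvt1*, 9 were lower with the inhibitors, 4 were higher and 3 were not called, with a median log2 fold change of -0.23 (-0.10 when scaled by library totals). These are 56.25% lower and 25.0% higher, beside 32.3% and 31.5% over all genes tested, whereas in replicate 1, 12 of them were higher and 4 lower, with a median log2 ratio of 0.17. Chains of the interleukin-2 receptor, whose signal sustains Myc, were among the lower genes, with log2 fold changes of -1.27 for *Il2ra* and -1.06 for *Il2rb*, as was *Nfkb1* with -0.78. Of 18 genes that set the stability of the Myc protein, 8 were lower and 3 higher (2 higher without DMSO replicate 3), with a median of -0.18, which scaling by library totals reduced to -0.05 with 7 lower and 4 higher, and in replicate 1, 10 were lower and 8 higher. The share of the stability genes called in either direction was near that over all genes (63.8%). *Pim1* and *Pim2*, kinases that stabilise Myc, had log2 fold changes of -1.25 and -0.90, *Usp36*, a nucleolar deubiquitinase of Myc, had -0.94, *Huwe1*, a large ubiquitin ligase, had -0.32, and *Skp2*, which is both a ligase and a coactivator, had 1.19. In replicate 1, *Pim1* (log2 ratio 0.22), *Pim2* (0.63) and *Skp2* (-0.14) went the other way, while *Usp36* (-0.30) and *Huwe1* (-0.21) kept their direction. The Myc protein itself was not measured.

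The cofactors moved in both directions in the count table, with shares called not far from the 63.8% over all genes. Of 11 Myc coactivators, 5 were lower and 3 higher around a median of -0.01 (2 higher with DESeq2 or without DMSO replicate 2, and 1 without DMSO replicate 3), while in replicate 1, 9 were lower and 2 higher, with count-table log2 fold changes of -0.79 for the acetyltransferase *Kat5*, -0.55 for *Ruvbl2*, -0.55 for *Hcfc1*, 0.85 for *Ccnt1* and -0.01, not called, for *Trrap*. Of 7 corepressor genes used by the antagonists, 3 were lower and 2 higher around a median of -0.05 (1 lower and 1 higher without DMSO replicate 3), and in replicate 1, 3 were lower and 4 higher. *Sin3b*, a scaffold that Mxd proteins bind, had 0.53, *Sap30* had -0.71, the deacetylase *Hdac1* had -0.21, which missed the edgeR quasi-likelihood threshold without DMSO replicate 3 (adjusted p 0.0797) and under upper-quartile (0.0697) or library-total (0.205) scaling, and *Ncor1* had 0.23, which missed the edgeR quasi-likelihood threshold when DMSO replicate 2 (adjusted p 0.0522) or DMSO replicate 3 (adjusted p 0.0501) was left out. When libraries were scaled by their totals alone, the median of all genes rose by 0.13 on the log2 scale, the coactivator median became 0.12 with 4 lower and 5 higher, and the corepressor median became 0.07 with 1 lower and 2 higher. These medians thus moved as much as that of all genes.

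Genes known to be induced by Myc in many cell types were mostly lower, like *Myc* itself in the count table. Of 65 tested, 45 were lower, 7 higher and 13 not called, that is 69.2% lower and 10.8% higher beside 32.3% and 31.5% over all genes, with a median log2 fold change of -0.33 beside 0.01. The 4 with the smallest p were the transporters *Slc7a5* (-2.19) and *Slc1a5* (-1.35), the mitochondrial serine enzyme *Shmt2* (-1.71) and the polyamine enzyme *Srm* (-1.61), and the most abundant, *Pkm*, was not called (-0.05), except without MAPK13-inhibitors replicate 3 (-0.07). Scaling by library totals left 36 lower and 10 higher at a median of -0.21, and leaving out DMSO replicate 3 left 38 lower and 4 higher at a median of -0.31. In replicate 1, 51 of the 65 were lower and 14 higher, with a median log2 ratio of -0.32, although *Myc* was higher there. Genes known to be repressed by Myc were split, with 6 of 14 lower and 6 higher at a median of -0.22 (4 higher without DMSO replicate 3), while in replicate 1, 4 were lower and 10 higher at a median of 0.76. Among them were *Gadd45b* (1.60), *Gadd45g* (1.07) and *Ndrg1* (0.64) on the higher side and *Gadd45a* (-1.14) and *Bcl2* (-1.46) on the lower side.

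Genes driven by Mondo factors with Mlx were few, with 1 of 6 tested lower and 3 higher, or 4 higher when scaled by library totals, and the share called was near the 63.8% over all genes. *Txnip*, the best known of them, had a log2 fold change of 0.20, *Klf10* 1.13 and *Gpd1* 2.27, while *Arrdc4*, its relative, had -0.57. The call of *Txnip* was lost without DMSO replicate 2 or 3, at edgeR quasi-likelihood adjusted p-values of 0.082 and 0.0882. Of 17 genes of dividing cells, 14 were lower (82.4%, beside 32.3% over all genes) and 1 higher (0 to 2 higher over the alternatives), with a median of -0.83, and in replicate 1 all 17 were lower. *Mxd3* thus fell in the same libraries as the genes of dividing cells, among them *Pcna* (-1.04), *Rrm2* (-1.30), *Mcm2* (-1.07) and *Ccne1* (-1.45), while *Mki67*, with the most counts over the 4 libraries, was not called (-0.16). The value of *Mki67* depended on the library, as it was called lower without MAPK13-inhibitors replicate 3 (-0.47) or with a replicate block (-0.18) and higher without MAPK13-inhibitors replicate 2 (0.09). Their part in the result for *Mxd3* was not tested.

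Promoter windows of the members were read to see whether members that moved together share the E-box or a Tcf sequence. Each window runs from 250 bases before to 50 bases after the start of a gene (RefSeq, GRCm38.p6), and 9 of the 10 members matched, *Mxi1* with 3 windows. *Myc* was not used here. The E-box letters CACGTG, which read the same on both strands, stood in windows of 4 of these 9 genes, 44.4%, beside 8.09% of all 27025 genes with a window. These 4 were *Max* and *Mxd4*, which were higher with the inhibitors, and *Mnt* and *Mlx*, which were lower. Over the whole table the letters stood in windows of 12.2% of genes called lower, 10.2% of genes called higher and 9.96% of genes tested and not called. In the lists of genes known to be induced or repressed by Myc, the shares were 28.6% of 56 and 30.8% of 13. The Tcf letters CTTTGA, or TCAAAG on the other strand, stood in 1 of 9, *Mycn*, beside 18.2% of all genes. A match describes the letters only and does not show that a factor binds there.

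The windows of the 4 members that hold an E-box are given because they divide evenly between the directions, with the E-box in capitals. It begins 3 bases before the start of *Max*, 219 before that of *Mxd4*, 123 before that of *Mnt* and 40 before that of *Mlx*. The windows are chr12:76962199-76962498 (minus strand), chr5:34187661-34187960 (minus strand), chr11:74830674-74830973 (plus strand) and chr11:101087040-101087339 (plus strand), each read 5′ to 3′ along its gene.
Max: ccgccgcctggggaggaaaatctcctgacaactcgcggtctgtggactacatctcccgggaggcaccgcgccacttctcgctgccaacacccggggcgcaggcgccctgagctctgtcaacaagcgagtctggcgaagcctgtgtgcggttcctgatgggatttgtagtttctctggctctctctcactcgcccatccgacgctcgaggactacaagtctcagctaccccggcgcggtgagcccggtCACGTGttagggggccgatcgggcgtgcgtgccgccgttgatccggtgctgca
Mxd4: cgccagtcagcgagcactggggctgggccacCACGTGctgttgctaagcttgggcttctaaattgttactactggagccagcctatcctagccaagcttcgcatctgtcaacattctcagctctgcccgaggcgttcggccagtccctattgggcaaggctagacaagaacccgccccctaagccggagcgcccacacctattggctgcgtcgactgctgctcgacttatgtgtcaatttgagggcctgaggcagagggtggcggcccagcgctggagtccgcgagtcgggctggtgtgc
Mnt: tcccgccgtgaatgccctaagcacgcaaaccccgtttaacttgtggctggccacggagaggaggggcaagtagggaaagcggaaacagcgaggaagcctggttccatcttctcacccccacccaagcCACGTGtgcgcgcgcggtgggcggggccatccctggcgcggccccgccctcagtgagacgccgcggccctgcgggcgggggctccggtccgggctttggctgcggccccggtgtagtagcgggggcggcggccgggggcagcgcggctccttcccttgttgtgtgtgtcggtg
Mlx: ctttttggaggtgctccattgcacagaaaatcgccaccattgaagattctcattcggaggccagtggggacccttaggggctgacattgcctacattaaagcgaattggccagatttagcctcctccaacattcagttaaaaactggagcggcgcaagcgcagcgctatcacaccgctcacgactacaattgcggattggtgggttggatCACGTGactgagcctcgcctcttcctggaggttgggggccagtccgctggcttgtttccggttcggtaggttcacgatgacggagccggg

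The windows of *Mxd1* and *Mxd3*, the members with the largest rise and the largest fall, are given for comparison. They lie at chr6:86669110-86669409 and chr13:55329682-55329981, both on the minus strand of GRCm38.p6. Neither holds CACGTG or CTTTGA on either strand, so nothing is in capitals, and the G and C bases make up 76.7% of the *Mxd1* window and 71.0% of the *Mxd3* window.
Mxd1: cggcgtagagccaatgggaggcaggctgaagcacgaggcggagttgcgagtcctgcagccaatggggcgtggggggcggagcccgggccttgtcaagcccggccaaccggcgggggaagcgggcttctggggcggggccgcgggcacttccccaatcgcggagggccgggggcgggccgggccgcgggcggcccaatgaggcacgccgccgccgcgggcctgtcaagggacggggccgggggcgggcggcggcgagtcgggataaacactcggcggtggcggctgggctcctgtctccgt
Mxd3: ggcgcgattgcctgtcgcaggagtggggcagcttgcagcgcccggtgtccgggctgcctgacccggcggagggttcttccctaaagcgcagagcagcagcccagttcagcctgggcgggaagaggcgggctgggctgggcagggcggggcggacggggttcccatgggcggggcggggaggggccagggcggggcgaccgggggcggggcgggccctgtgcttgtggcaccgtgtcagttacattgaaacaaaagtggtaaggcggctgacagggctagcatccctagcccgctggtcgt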

How the data were processed

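The series measured polyadenylated RNA of spleen CD4+ T cells from mice in 3 libraries per group. For replicates 2 and 3 the authors deposited whole-number counts per gene, and the submitters' processing notes name fastp 0.21.0, HISAT2 2.1.0, StringTie 2.1.5, DESeq2 1.30.1 and the build mm10. For replicate 1 the authors deposited values read here as FPKM, a unit inferred from the values, and the notes name FastQC, HISAT2 and GRCm38.

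The count table was fitted with edgeR 4.0.16 under R 4.3.3 (filterByExpr with a minimum count of 10 and a minimum total of 15, TMM factors of 0.960 and 0.955 for DMSO and 1.05 and 1.04 for MAPK13-inhibitors, quasi-likelihood test, Benjamini-Hochberg adjustment), leaving 16269 genes at 26874805 to 33854760 counts per library. The floor given for a count of 0 covers counting error only, and the intervals come from the quasi-likelihood fit. The test was first run on simulated data in which few genes changed, evenly in both directions. It therefore does not check the scaling or the error rate for a table in which 63.8% of genes were called. Marker sums were scaled by library totals alone. FPKM ratios used a pseudocount of 1, which understates changes of low genes, and had no test. Gene positions and exon lengths came from GENCODE M21 (GRCm38), promoter windows from RefSeq.

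The members and the gene lists were chosen with earlier results of these data known. Named genes were the members, *Mga*, *Mlxip*, *Mlxipl*, *Mapk13*, *Tcf7*, *Lef1* and *Pvt1*, the 3 genes nearest to *Myc*, and, of each list that is not a marker list, the 4 with the smallest p and the most abundant. Marker lists were given by sums, with the most counted gene and markers whose calls need a remark, and genes that share exon bases with a member were named too. A corepressor gene and a B cell marker are not reported here, and their lists were counted without them. Alternatives were RLE, upper-quartile and library-total scaling, no filter, at least 10 counts in every library, DESeq2 1.42.0, a block for the replicate number, an adjusted p under 0.01, each library left out, a pseudocount of 0.1, members with at least 1 FPKM in both libraries, and the antagonist sum without *Mnt*. Setting *Myc* against CD4+ T cell or B cell markers was added after seeing the data.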

Additional observations from a re-analysis of the deposited data

Results flagged for a closer look

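Among the 10 members and *Mga*, *Mlxip* and *Mlxipl*, all called but *Mycn*, there were 5 called genes in which every library of replicates 2 and 3 moved one way with the inhibitors and replicate 1 moved the other way, on the log2(FPKM + 1) scale. Over all called genes, only 65.9% had the same direction in replicate 1, so such reversals were common across the table. *Myc* was lower in the count table and had a log2 ratio of 0.42 in replicate 1. *Mnt*, also lower in the count table, had 0.019 there, and *Mlxipl*, lower in the count table, had 0.16. *Max*, higher in the count table, had -0.046, and *Mga*, higher in the count table, had -0.15. Other named genes, such as *Mapk13* and *Lef1*, also changed direction. In *Max* and *Mnt* the replicate 1 libraries were nearly level. The difference between the sets of libraries was not tested, and the library kit and the set cannot be told apart.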

How the results depend on the processing

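The 9 members called kept their directions and calls under every alternative run, as 5 lower and 4 higher. Without DMSO replicate 3, the DMSO group was a single library with 0 *Mycn* counts. *Mycn* then entered the test only through the inhibitors libraries and could come out only as higher. Over the alternatives the log2 fold change ran from -1.09 to -0.88 for *Myc*, from -1.84 to -1.60 for *Mxd3*, from 0.82 to 1.05 for *Mxd1* and from 0.27 to 0.47 for *Max*, whose change was the smallest in the main fit but not under library-total scaling (*Mnt*) or without DMSO replicate 3 or MAPK13-inhibitors replicate 3 (*Mxi1*). Over all genes 8163 (adjusted p under 0.01) to 10943 (without MAPK13-inhibitors replicate 3) were called, beside 10374. The libraries share only a number: deviations of same-numbered libraries correlated at -0.0064, and with the replicate number as a block 10645 genes and the same count of 9 members were called. Without a library the lone library of a group is assumed to vary like the other group. *Pvt1*, not called, ran from -0.013 without MAPK13-inhibitors replicate 2 to 0.15 without MAPK13-inhibitors replicate 3 and 0.20 under library-total scaling, and the cause was not tested. The difference in *Myc* against its antagonists was -1.45 without *Mnt* in the sum and -0.20 against CD4+ T cell markers or -1.30 against B cell markers instead, by the construction of each ratio. *Mycn* and *Mlxipl* had few counts, and the part of depth in their calls was not tested. In replicate 1 the pseudocount of 0.1 gave *Mycl* -0.92, *Mycn* 1.93 and *Mlxipl* 0.95.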
